A study of Mus musculus with 10 samples.

Results

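Immediate early genes are the genes that a cell transcribes within minutes of a stimulus, without making new protein first. The 10 members of the list, named by symbol, were the AP-1 subunit genes Fos, Fosb, Jun, Junb and Jund, the bZIP factor gene Atf3, the zinc finger factor genes Egr1 and Egr2, the orphan nuclear receptor gene Nr4a1 and Ier2. They were compared between metastasis-associated macrophages (MAMs) and resident alveolar macrophages (RAMs) in mouse lung. All 10 were among the 24538 genes counted, and all 10 passed the study's limit of a mean FPKM of at least 1 in either group, as did 11571 genes in all.

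MAMs were cells positive for CD45, F4/80 and MRC1, negative for LY6C, high in forward scatter and CD11B+CD11C-, sorted from lung metastases of wild type C57BL6/J mice, and RAMs were sorted by the same markers from normal lungs as CD11B-CD11C+ cells. The metastases came from E0771-LG, a mouse mammary tumor line, given through the tail vein to syngenic females that were 6 to 8 weeks old, and the sampled mice are recorded as 8 to 10 weeks old. Each group had 5 libraries, and the dissected nodules of 2 to 4 mice were pooled for a MAM sample. The groups thus differ at once in tissue, in the dissection of nodules before digestion, in sorted phenotype and in macrophage type. The effects of these cannot be told apart. Both groups are recorded with the same enzymatic digestion of 30 min at 37 degrees C, in a buffer holding the transcription inhibitors alpha-amanitin at 5 µg/mL and actinomycin D at 1 µg/mL.

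Transcription of immediate early genes is switched on by MAP kinases acting on ternary complex factors at serum response factor (SRF), and by CREB at cyclic AMP response elements. Their products are mostly transcription factors that act on a second wave of genes. FOS proteins bind DNA only when paired with a JUN protein, whereas JUN proteins can also pair with each other. In macrophages these genes respond to growth factors, microbial products and adhesion, and in many tissues they also respond to the digestion that frees the cells.

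The libraries held between 50746305 and 87523247 counts on genes, and no pair was identical. The share of reads assigned to no gene was 54.6% to 58.3% in MAMs and 62.2% to 64.1% in RAMs, so it differed between the groups without overlap, and its part in the results was not tested. Levels are given as CPM, the counts of a gene scaled to a fixed library total after TMM normalization over the genes tested. The sorting label was checked on marker genes. The 10 genes of a macrophage list summed to 29100 to 36300 CPM in MAM libraries and 32700 to 40100 CPM in RAM libraries. Most of this sum was Lyz2, at means of 20700 CPM in MAMs and 29200 CPM in RAMs. The list also holds genes of the sorting markers themselves, such as Itgam for CD11B and Itgax for CD11C, so it is not independent of the sort. The 11 genes of an alveolar macrophage list, Itgax again among them, summed to 417 to 800 CPM in MAM libraries against 10900 to 13700 CPM in RAM libraries. The lists for other cell types summed to at most 37.1 CPM (neutrophil), 31.1 (lymphocyte), 41 (epithelial and tumour), 118 (stroma and endothelium) and 5.19 (erythrocyte) in MAMs. In RAMs they summed to at most 50.2, 20.6, 735, 219 and 5.28 CPM in the same order. The epithelial sum in RAMs was mostly Krt19, a keratin gene, at a mean of 436 CPM, and the stromal sum mostly Vwf, the gene of von Willebrand factor, at 151. The most abundant genes elsewhere were Cxcr2, Cd4, Esr1, Kdr and Alas2 in MAMs, at means of 7.41, 10.1, 11.5, 29 and 3.05 CPM, and Cxcr2, Cd79a and Alas2 in RAMs, at 31.2, 3.75 and 3.7. The 4 hemoglobin genes and Elane had no count in any library, Ly6g none in RAMs and Cldn5 none in MAMs. Counting error alone would let such a 0 stand for as many as 3 counts. The study counted uniquely mapped reads only, so reads shared by similar hemoglobin genes could be lost. A 0 for these genes is thus no measure of erythrocyte content. In bulk samples, fewer cells of a type and less RNA per cell cannot be told apart.

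The immediate early genes moved in both directions. Of the 10 genes, 5 fell in MAMs (Fosb, Egr2, Egr1, Ier2 and Fos), 3 rose (Atf3, Junb and Jun), and 2 did not pass the threshold (Nr4a1 and Jund). A gene was called where its p in the quasi-likelihood test of edgeR, adjusted by Benjamini-Hochberg over all 11571 genes, was under 0.05. Of all genes tested, 27.3% were called lower and 28.9% higher, so the share of members called higher was near the background. With a fold change over 2 required in addition, 3 of the 10 passed, against 30.3% of all genes. These were Fosb and Egr2, which were lower (15.1% of all genes), and Atf3, which was higher (15.3%). The median log2 fold change of the 10 genes was -0.24, and that of all genes tested was -0.02. For 7 of the 10 the libraries of the groups did not overlap, against 44.9% of all genes tested. In 5 of the 7 MAMs were the lower group (21.2% of all genes) and in 2 the higher (23.7%).

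**Figure D1:**
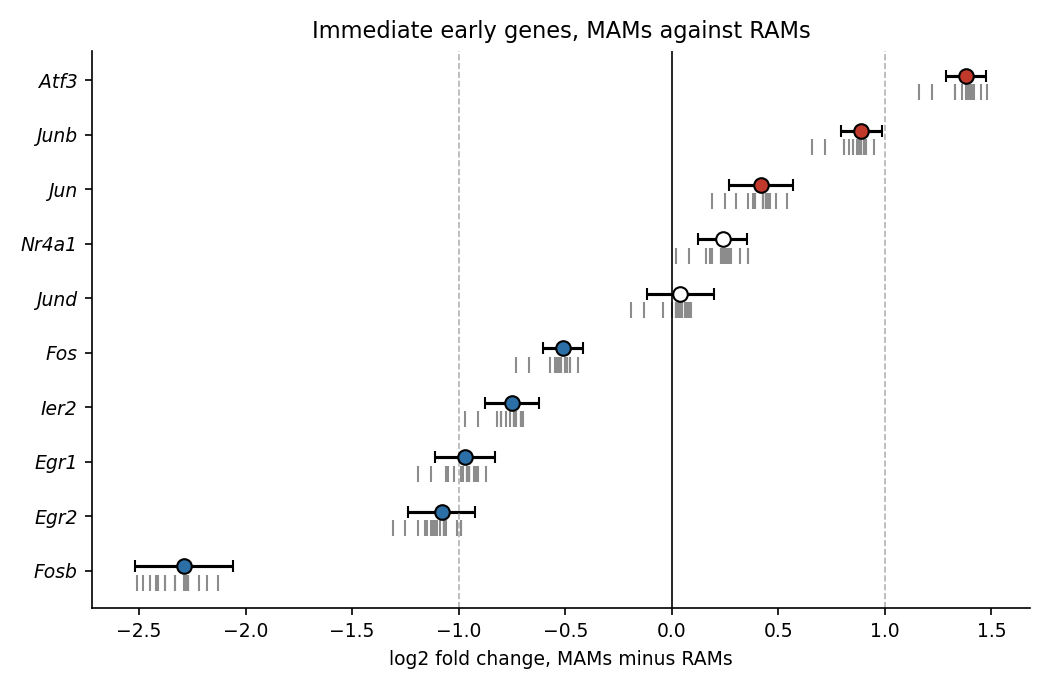
Log2 fold change (MAMs minus RAMs, x axis) of each immediate early gene (y axis), with its standard error as bars, from 5 MAM and 5 RAM libraries. Filled points were called by edgeR at an adjusted p under 0.05 (red higher in MAMs, blue lower), open points did not, grey ticks give the 19 alternative fits, and dashed lines mark a 2-fold change. Fosb lies apart at -2.29, and the ticks of Jund fall on both sides of 0.

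Fosb, which encodes a FOS subunit of AP-1, had the largest change of the 10 genes. In GRCm38 it occupies bases 19302696 to 19310051 of chromosome 7 (minus strand), its longest transcript in GENCODE has 4 exons, and no other annotated gene overlaps it. In RAM replicates 1 to 5 it was at 517, 453, 526, 608 and 444 CPM, and in MAM replicates 1 to 5 at 56, 71.7, 139, 98.8 and 156. Every MAM library was below every RAM library, and the lowest RAM library stood well above the highest MAM library. The means were 104 ± 42.8 CPM for MAMs and 510 ± 66.1 CPM for RAMs (SD, n = 5 each), a 4.88-fold lower level in MAMs. Its log2 fold change came to -2.29 in the edgeR test, with a standard error of 0.231 and an adjusted p of 6.08e-07.

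Fos, the gene of the founding FOS subunit, fell far less. It lies on chromosome 12 from 85473890 to 85477273 on the plus strand, with 4 exons and no overlapping gene. It was at 369, 318, 325, 354 and 308 CPM in RAM replicates 1 to 5 and at 191, 217, 245, 275 and 247 CPM in MAM replicates 1 to 5. The groups did not overlap, although the highest MAM library came close to the lowest RAM library. edgeR gave a log2 fold change of -0.51 with a standard error of 0.0949 and an adjusted p of 0.000299, a 1.42-fold lower level. The Fosb level per length, in the deposited FPKM values, was 0.250 ± 0.0799 of the Fos level for MAMs and 0.884 ± 0.0809 for RAMs (SD, n = 5 each). This ratio ran from 0.177 to 0.351 in MAM libraries and from 0.816 to 0.997 in RAM libraries, so Fos and Fosb stood at similar levels in RAMs and not in MAMs.

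The JUN subunit genes went the other way or did not pass the threshold. Junb, whose product is a JUN subunit that often restrains JUN itself, was at 110, 111, 130, 123 and 127 CPM in RAM replicates 1 to 5. It was at 258, 211, 232, 180 and 228 CPM in MAM replicates 1 to 5. Each MAM library was above each RAM library. Its log2 fold change came to 0.89 in the edgeR test, with a standard error of 0.0963 and an adjusted p of 1.34e-06, a 1.85-fold higher level. Junb lies on the minus strand of chromosome 8, and its longest transcript has 1 exon. Its GENCODE extent, from 84974484 to 84978718, holds 2 transcripts and overlaps Prdx2 on the plus strand, so its counts are uncertain to that extent.

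Jun, the gene of c-Jun, rose by 0.42 on the log2 scale, with a standard error of 0.151 and an edgeR adjusted p of 0.0291. It was at 166, 161, 169, 192 and 190 CPM in MAM replicates 1 to 5 and at 111, 177, 158, 88.3 and 122 CPM in RAM replicates 1 to 5. RAM replicate 2 lay within the range of the MAM libraries, so the groups overlapped. The call was lost in 7 of 19 alternatives, with upper-quartile scaling (0.25), with library totals alone (0.19) and without MAM replicate 4 (0.38) or 5 (0.39) or RAM replicate 1 (0.36), 4 (0.30) or 5 (0.39), on the log2 scale. Jun is a single exon on chromosome 4 from 95049034 to 95052222 on the minus strand, where the antisense gene Junos overlaps it.

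Jund, whose product is the JUN subunit present in many resting cells, was the lowest of the 10 genes in both groups. It was at 19.4, 18.9, 15.9, 15.4 and 22.3 CPM in MAM replicates 1 to 5, around RAM values of 19.6, 18.2, 18.7, 17.1 and 16.1. The MAM libraries lay on both sides of the RAM libraries. edgeR gave a log2 fold change of 0.04 with a standard error of 0.158 and an adjusted p of 0.86, and its sign turned in 4 of 19 alternatives. Jund is a single exon on chromosome 8 from 70698949 to 70700616 on the plus strand, overlapped by the antisense gene Gm11175.

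The balance of these FOS and JUN transcripts was taken from FPKM, which are scaled by length. Fos and Fosb together were at 116, 135, 171, 175 and 172 FPKM in MAM replicates 1 to 5 and at 349, 313, 340, 376 and 302 in RAM replicates 1 to 5. Jun, Junb and Jund together were at 302, 271, 288, 252 and 288 FPKM in the same MAM libraries and at 158, 189, 197, 165 and 180 in the RAM libraries. The sum of Fos and Fosb was thus below the JUN sum in each MAM library and above it in each RAM library. Their ratio was 0.553 ± 0.117 for MAMs and 1.91 ± 0.308 for RAMs (SD, n = 5 each), and no test was made of this ratio. The order in MAMs depended on which FOS genes were summed. Fosl2, a FOS family gene outside the list, was at 94.6 ± 6.65 FPKM in MAMs and 122 ± 13.8 in RAMs (SD, n = 5 each), with a log2 fold change of -0.39, and Fosl1 was at a mean of 9.57 and 0.738 FPKM. With both added, a choice made after seeing the data, the ratio was 0.927 ± 0.15 for MAMs, from 0.723 to 1.13, and 2.6 ± 0.323 for RAMs, from 2.32 to 3.02 (SD, n = 5 each). The FOS sum then passed the JUN sum in MAM replicate 4 and in all 5 RAM libraries, and the groups still did not overlap. Junb over Jun, by contrast, overlapped between the groups, at 1.96 to 3.10 in MAMs and 1.37 to 2.97 in RAMs.

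**Figure D2:**
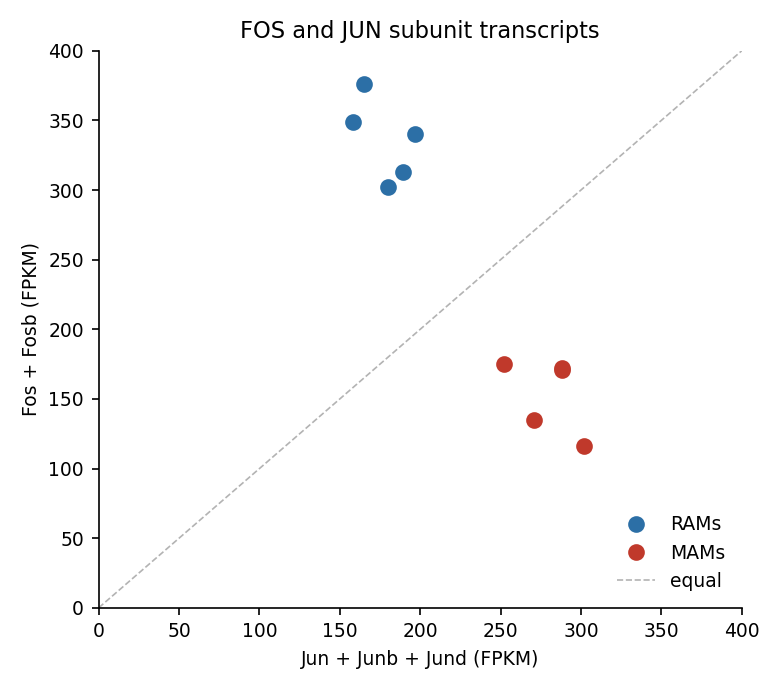
Summed FPKM of Fos and Fosb (y axis) against summed FPKM of Jun, Junb and Jund (x axis), 1 point per library, with 5 RAM libraries in blue and 5 MAM libraries in red. The dashed line marks equal sums, and MAM replicates 3 and 5 lie nearly on each other. Fosl1 and Fosl2 are not in the sum. All RAM points lie above the line, at ratios from 1.65 to 2.28, and all MAM points below it, at ratios from 0.384 to 0.693.

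Atf3 encodes a stress-induced bZIP factor of the ATF/CREB family that pairs with JUN proteins and restrains inflammatory genes in macrophages. It rose more than any other member. It was at 151, 184, 152, 161 and 163 CPM in MAM replicates 1 to 5 and at 69, 66.3, 63.9, 59.3 and 52.7 CPM in RAM replicates 1 to 5. Each MAM library stood above each RAM library, and neither group was spread widely. Its log2 fold change came to 1.38 in the edgeR test, with a standard error of 0.0937 and an adjusted p of 6.23e-09, a 2.61-fold higher level. Atf3 lies on chromosome 1 from 191170296 to 191218039 on the minus strand, and the short RNA gene Gm24748 overlaps it.

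The EGR genes were both lower in MAMs. EGR1 and EGR2 are zinc finger factors that bind GC-rich sites, and EGR2 takes part in macrophage and dendritic cell differentiation. Egr2 was at 317, 252, 270, 317 and 366 CPM in RAM replicates 1 to 5 and at 186, 146, 107, 107 and 173 CPM in MAM replicates 1 to 5. The groups did not overlap, and within MAMs replicates 1 and 5 stood above replicates 3 and 4. edgeR gave a log2 fold change of -1.08 with a standard error of 0.156 and an adjusted p of 2.66e-05, a 2.12-fold lower level. The fold change was under 2 without MAM replicate 3 (-0.99) or 4 (-0.99) on the log2 scale, with the call by adjusted p kept. Egr2 lies on chromosome 10 from 67535475 to 67542188 on the plus strand, and no other annotated gene overlaps it.

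Egr1 was at 329, 561, 522, 438 and 378 CPM in RAM replicates 1 to 5 and at 281, 196, 218, 205 and 240 CPM in MAM replicates 1 to 5. RAM replicate 1 was the nearest to the MAM libraries, and the groups did not overlap. Its log2 fold change came to -0.97 in the edgeR test, with a standard error of 0.14 and an adjusted p of 2.75e-05, just short of 2-fold. It was past 2-fold in 5 of 19 alternatives, among them the fit without RAM replicate 1 (-1.06). Egr1 over Egr2 in FPKM was 1.68 ± 0.323 for MAMs and 1.55 ± 0.548 for RAMs (SD, n = 5 each), so their proportion differed by less than its spread.

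Ier2 encodes a small nuclear protein induced by serum and growth factors. It was at 71.4, 69.3, 70.1, 54.4 and 51.1 CPM in RAM replicates 1 to 5 and at 37.2, 34.4, 43.4, 34.3 and 39.4 CPM in MAM replicates 1 to 5. RAM replicates 4 and 5 were lower than the other RAM libraries, and still above all MAM libraries. edgeR gave a log2 fold change of -0.75 with a standard error of 0.125 and an adjusted p of 0.000114. Ier2 is a single exon on chromosome 8 from 84661331 to 84662852 on the minus strand, with no overlapping gene.

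Nr4a1 encodes NUR77, an orphan nuclear receptor needed by LY6C low monocytes and used as a reporter of receptor signalling in lymphocytes. It was at 131, 112, 162, 142 and 173 CPM in MAM replicates 1 to 5 and at 128, 120, 103, 124 and 135 CPM in RAM replicates 1 to 5. The groups overlapped, with MAM replicates 1 and 2 among the RAM libraries. Its log2 fold change came to 0.24 in the edgeR test, with a standard error of 0.115 and an adjusted p of 0.0896. It passed the threshold in 3 of 19 alternatives, with limma on log2(FPKM + 1) or log2(FPKM + 0.1), both at 0.36, and without MAM replicate 2 (0.32). Nr4a1 lies on chromosome 15 from 101254269 to 101274795 on the plus strand, with 8 exons in its longest transcript.

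**Figure D3:**
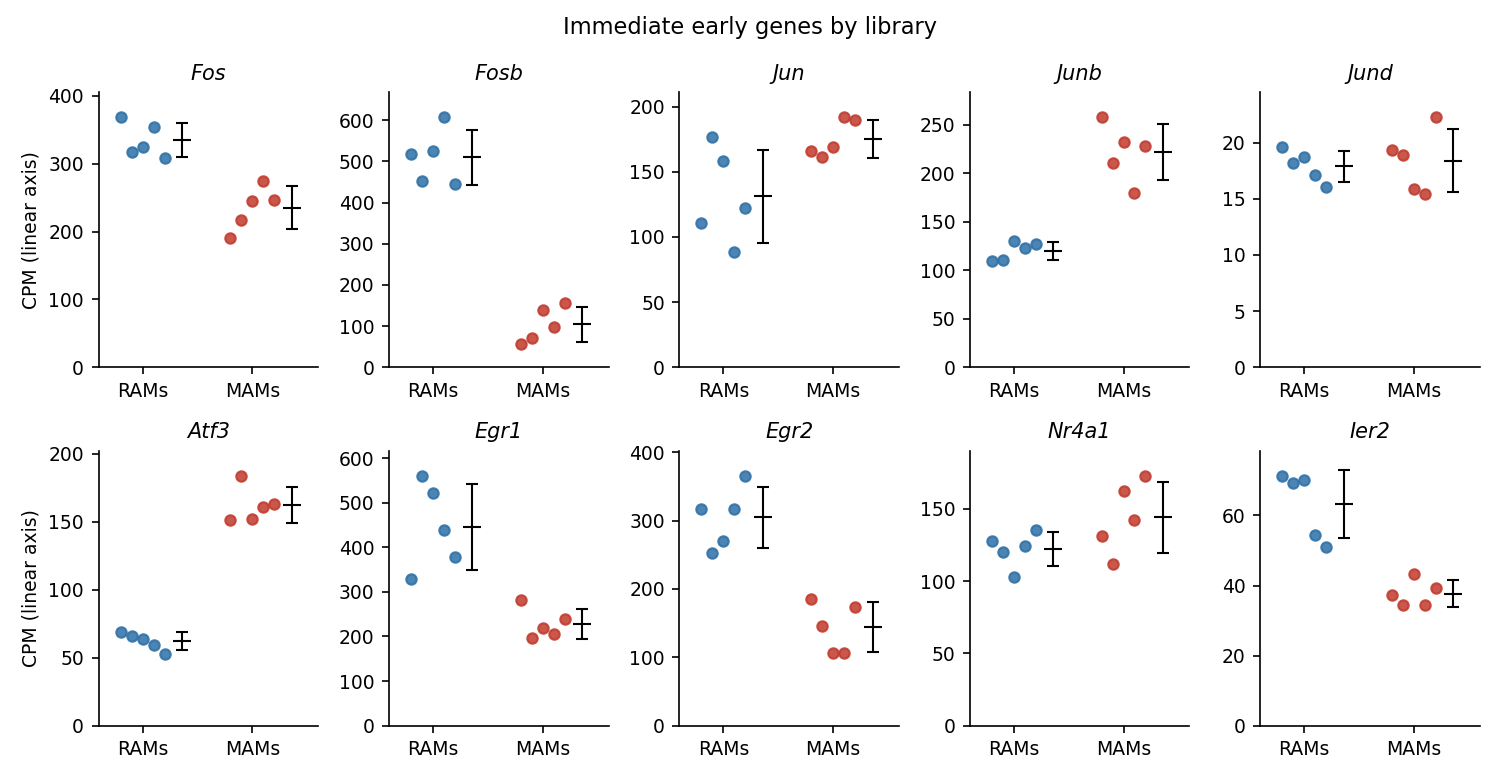
CPM (y axis, linear, from 0) of each immediate early gene in 5 RAM libraries (blue) and 5 MAM libraries (red), drawn within a group from replicate 1 at the left to 5 at the right, which has no meaning as an order. The bar beside each group is the mean and SD. Groups are apart for Fos, Fosb, Junb, Atf3, Egr1, Egr2 and Ier2, and overlap for Jun, Jund and Nr4a1.

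Sequences before the transcription start are shown for the members with called changes that held a match, since CREB and SRF sites before the start are the classical route to these genes. RefSeq promoters on GRCm38.p6 were at hand for 8 of the 10 genes, all but Egr1 and Ier2, and the 250 bases before each listed start were searched on both strands. These listed starts need not be the GENCODE starts given above. The Jund window ends at base 70697738 of chromosome 8 and does not adjoin the GENCODE start at 70698949. The Atf3 window, from 191183334 to 191183583, lies inside the GENCODE extent, whose start on the minus strand is at 191218039. The third Egr2 window, from 67537619 to 67537868, lies past the GENCODE start at 67535475. The Nr4a1 window, from 101266596 to 101266845, lies past the GENCODE start at 101254269. The letters TGACG, the shorter form of the cyclic AMP response element, were found for 6 of the 8 genes (Fos, Fosb, Junb, Atf3, Egr2 and Nr4a1), and in 17.8% of all 32851 windows. The full element TGACGTCA and the AP-1 site TGANTCA were found for 0 of the 8 genes, and in 1.55% and 6.75% of all windows. The CArG box, the sequence that SRF binds, was found for Egr2, in 1.47% of all windows, and the EGR site GCGNGGGCG for Fosb and Nr4a1, in 4.7% of all windows. Sites further upstream, and any before Egr1 or Ier2, were not searched, so a gene without a match here may still hold one. TATAAA was found for Fos (12.4% of windows) and CCGGAAG, an ETS core, for 0 of the 8 genes (6.91% of windows). Egr2 has 5 listed starts, so it had more windows in which to match, and the third is shown. The 120 bases before the start follow, 5′ to 3′ on the strand of the gene, with TGACG or its complement CGTCA and the CArG box in capitals.
Fos (chr12:85473770-85473889, plus strand): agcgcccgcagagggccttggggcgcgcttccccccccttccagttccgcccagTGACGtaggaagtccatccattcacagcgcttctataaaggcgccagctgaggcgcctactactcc
Fosb (chr7:19310046-19310165, minus strand): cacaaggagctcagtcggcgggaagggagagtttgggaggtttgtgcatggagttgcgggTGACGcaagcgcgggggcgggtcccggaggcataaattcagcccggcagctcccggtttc
Egr2 (chr10:67537749-67537868, plus strand): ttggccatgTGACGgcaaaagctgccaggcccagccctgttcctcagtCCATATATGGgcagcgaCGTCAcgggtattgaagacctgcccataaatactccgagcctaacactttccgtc
Junb (chr8:84978749-84978868, minus strand): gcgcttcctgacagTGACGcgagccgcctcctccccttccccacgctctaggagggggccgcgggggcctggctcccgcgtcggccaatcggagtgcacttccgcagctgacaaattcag
Atf3 (chr1:191183334-191183453, minus strand): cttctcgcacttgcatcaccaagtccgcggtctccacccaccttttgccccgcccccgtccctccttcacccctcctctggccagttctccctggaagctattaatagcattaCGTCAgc

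Fos and Fosb both hold TGACG near the start, at 66 to 62 and at 60 to 56 bases before it. In Egr2 the CArG box CCATATATGG stands at 72 to 63 bases before the start, between a TGACG and a CGTCA. Genes that fell (Fos, Fosb, Egr2) and genes that rose (Junb, Atf3) both held the letters TGACG. A match is a description of these letters in this window, and binding was not measured. The part of these letters in the changes was not tested.

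Levels per length showed how the order of the genes differed between the groups. In RAMs Fos had the highest mean FPKM at 178, followed by Egr1 at 166 and Fosb at 158, and neighbours among these overlapped. Egr2 (111 FPKM) and Junb (110) came next and overlapped, then Ier2 (66.5), Jun (56.3) and Nr4a1 (50.8), which overlapped in turn. Atf3 at 31.4 FPKM and Jund at 11.2 were each apart from their neighbours. In MAMs Junb was highest at 194 FPKM, apart from Fos at 123. Atf3 (87.4), Egr1 (84.5), Jun (74.4), Nr4a1 (66.0), Egr2 (51.9), Ier2 (38.1) and Fosb (31.1) followed, each overlapping the next, as Fos and Atf3 did. Fosb moved from the third place in RAMs to the ninth in MAMs, and Atf3 from the ninth to the third. All members but Jund were in the upper part of the genes tested, from the percentile 79.2 for Fosb to 96.9 for Junb in MAMs and from 81.7 for Atf3 to 97.5 for Fos in RAMs. Jund was at the percentiles 54.7 and 55.3.

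The spread among the libraries of a group was below that of the median gene for 8 of the 10 members in either group, but below that of genes at their own level for only 5 of the 10. The SD of log2 CPM had a median of 0.203 over the 10 genes in MAMs and 0.168 in RAMs, and over all genes tested the medians were 0.282 and 0.236. In each group 2 of the 10 genes were above the median of all genes, Fosb and Egr2 in MAMs and Jun and Egr1 in RAMs. The SD was greater in MAMs than in RAMs for 6 of the 10 genes, and for 60.9% of all genes tested. Highly expressed genes vary less in general. The dispersion that edgeR estimated was above the trend at the gene's own level for 5 of the 10 members (Fosb, Egr2, Jun, Egr1 and Nr4a1), and for 32.6% of all genes tested. The median ratio to the trend was 0.97 over the members and 0.911 over all genes. Differences in spread between the groups are given as description and were not tested. MAM samples were pooled from 2 to 4 mice and no pooling is recorded for RAM samples, so the SDs of the groups may describe unlike units.

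Fosb varied most. Its SD was 0.625 in MAMs and 0.184 in RAMs, and the highest MAM library was 2.79 times the lowest. The dispersion that edgeR estimated for Fosb, as a coefficient of variation of 0.248, was 1.94 times that of genes at its level. Jun varied the other way, with an SD of 0.117 in MAMs and 0.4 in RAMs, where replicate 2 was 2.00 times replicate 4. Egr2 had an SD of 0.374 in MAMs and 0.212 in RAMs, and Egr1 0.207 and 0.319. Atf3 had the lowest SD among MAMs at 0.114, and Fos the lowest among RAMs at 0.108. Junb, Jund, Nr4a1 and Ier2 had SDs between 0.111 and 0.249 in either group.

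**Figure D4:**
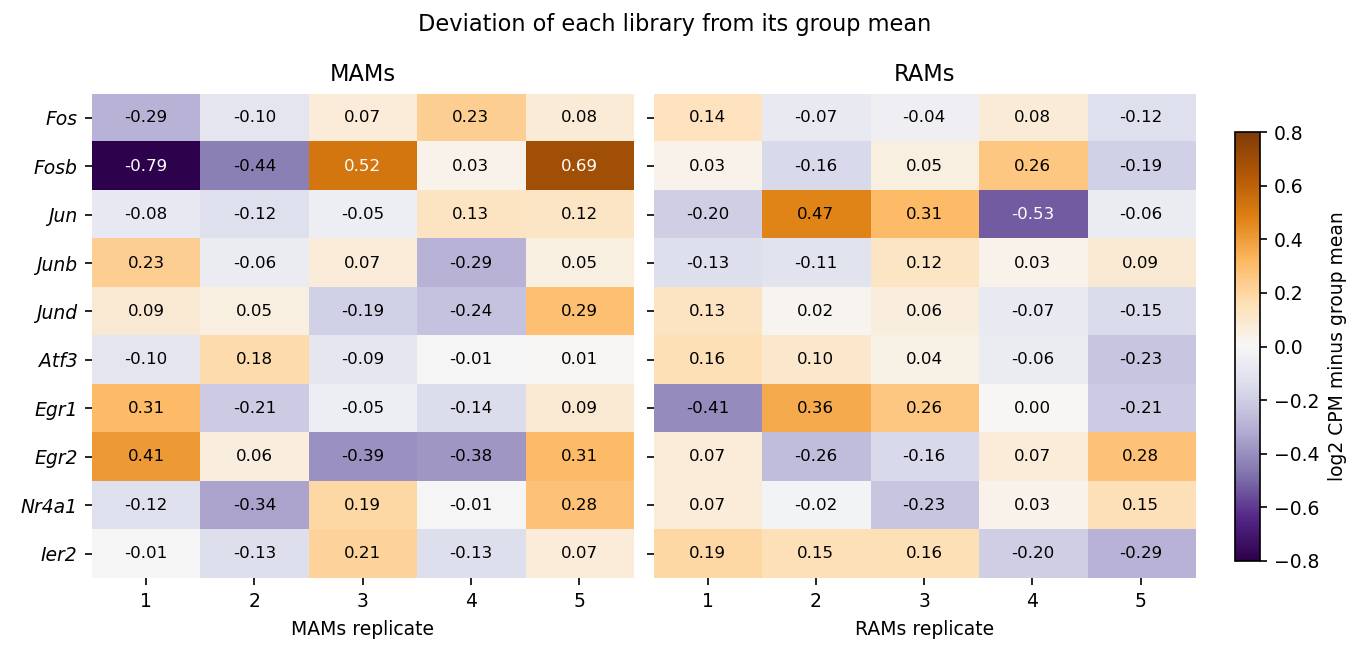
Log2 CPM of each immediate early gene (rows) in each library (columns) minus the mean of its group, with MAMs at the left and RAMs at the right, orange above and purple below the mean. In MAMs Fosb runs from -0.79 in replicate 1 to 0.69 in replicate 5, and Egr2 is highest in replicate 1 at 0.41. In RAMs Jun and Egr1 are both highest in replicate 2, at 0.47 and 0.36.

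The members did not rise and fall as 1 block among the libraries. In MAM replicate 1 Fosb, Fos and Atf3 were lowest (Fosb by -0.79 and Fos by -0.29 log2 from the group mean), whereas Egr1, Egr2 and Junb were highest (0.31, 0.41 and 0.23). MAM replicate 5 was above the group mean for all 10 genes, by 0.01 to 0.69, and highest for Fosb, Jund and Nr4a1. It was also the deepest library, with 87523247 counts on genes, and the part of depth was not tested. In RAM replicate 2 Jun and Egr1 were highest and Egr2 was lowest (-0.26). RAM replicate 5 was lowest for Fos, Fosb, Jund, Atf3 and Ier2, and highest for Egr2 (0.28) and Nr4a1 (0.15). It held the fewest counts on genes, 50746305.

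Marker sums of other cells are given beside Fosb as description. The summed level of 11 alveolar macrophage genes was 800 and 652 CPM in MAM replicates 1 and 2, where Fosb was lowest, and 546, 417 and 464 in replicates 3 to 5. Much of that sum in MAMs was Marco, a scavenger receptor gene at 89.7 to 389 CPM, which was not called between the groups (-0.67, adjusted p = 0.0762 in the edgeR test), and Itgax at 145 to 240 CPM. Some markers that set RAMs apart varied little among MAMs, such as Chil3 at 89.1 to 118 CPM and Ear1 at 8.14 to 9.12 CPM. Others varied more, such as Fabp4 at 7.76 to 16.5 CPM, Car4 at 2.17 to 4.23 CPM and Ear2 at 0.489 to 1.11 CPM. The summed level of 10 genes of stroma and endothelium was 68.7 and 62.1 CPM in MAM replicates 1 and 2 and 118, 118 and 88.3 in replicates 3 to 5, with a range of 127 to 219 in RAMs. The RAM sum was mostly Vwf, and the other 5 tested genes of the list (Col1a1, Pdgfra, Pecam1, Cdh5 and Kdr) were higher in MAMs, by 1.48 to 4.93 on the log2 scale. The 10 neutrophil genes summed to 5.88, 7.14, 8.56, 37.1 and 23.1 CPM in MAM replicates 1 to 5 and to 21 to 50.2 in RAMs. There the RAM sum was mostly Cxcr2, and the other tested genes, S100a8 and S100a9, were higher in MAMs, by 1.12 and 3.47 on the log2 scale. The part of these cells in the level of Fosb was not tested. These genes were named after their values were seen.

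The genes nearest to each member in pattern were found by the root mean square difference, over the 10 libraries, of log2 CPM from each gene's own mean. The difference between the groups stays in this measure, so a near gene is also one with a similar fold change. For Fos these were Pcnx (0.0917), Vim (0.104), Kdm3b (0.105), Ptk2b (0.112) and Setd1a (0.116), on the log2 scale, and none of them is a member. The nearest gene was Ikzf2 for Fosb (0.160), Mob3a for Egr2 (0.114), Zmym1 for Egr1 (0.138), Parp4 for Ier2 (0.101) and Srgap2 for Atf3 (0.0962). It was Calu for Junb (0.0863), Stip1 for Jun (0.138), Nmt1 for Jund (0.0752) and Zdhhc17 for Nr4a1 (0.0870). With the group means removed, Epb41l2 (0.0589), Tet2 (0.0612), Rnf44 (0.0639), Bcl10 (0.0642) and Snx5 (0.0655) were nearest to Fos. Among the members themselves, with the group means kept, Fos and Ier2 were nearest to each other (0.235), and so were Junb and Atf3 (0.341) and Jund and Nr4a1 (0.263).

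Other bZIP genes around AP-1 were mostly higher in MAMs. Of 13 genes tested, 8 rose, 3 fell and 2 did not pass the threshold in the edgeR test, around a median of 1.18 on the log2 scale. Maf, which encodes a large MAF factor of macrophage differentiation, rose most. Maf was at 292 ± 51.9 CPM for MAMs and 2.77 ± 0.365 CPM for RAMs (SD, n = 5 each), a log2 fold change of 6.72. Maff, a small MAF protein gene without an activation domain, fell the most among them, from 73.8 ± 18.3 CPM in RAMs to 17.9 ± 5.61 in MAMs (SD, n = 5 each), at -2.04. Batf, whose product pairs with JUN proteins in place of FOS, fell by 0.66 on the log2 scale.

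Of 6 further EGR, NR4A and NAB genes, 5 were tested, 4 rose, 0 fell and 1 did not pass, with a median of 1.05 on the log2 scale. Nab1, a corepressor that EGR proteins recruit, was at 189 ± 8.24 CPM in MAMs and 75.9 ± 9.52 in RAMs (SD, n = 5 each), a log2 fold change of 1.32. Nr4a2, a relative of Nr4a1, was at 96.3 ± 14.8 and 42.4 ± 13.7 CPM (SD, n = 5 each), at 1.18, and its groups did not overlap.

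Among 46 tested genes of a list of other primary response genes, 32 rose, 8 fell and 6 did not pass the threshold in the edgeR test, around a median of 0.94 on the log2 scale. The largest rises were in Ptgs2, the inducible cyclooxygenase gene, in the chemokine genes Ccl4 and Cxcl1, and in Socs3, a feedback inhibitor of cytokine signalling. Ptgs2 was at 168 ± 24.5 CPM in MAMs and 2.17 ± 0.751 in RAMs (SD, n = 5 each), and its log2 fold change was 6.27. Those of Ccl4, Socs3 and Cxcl1 were 5.50, 4.43 and 3.79. Ccl4 and Cxcl1 have similar relatives, and reads that map to more than 1 gene would be left out of the counts. Among those that fell, the log2 fold change was -1.27 for Klf10 and -1.17 for Klf4, which encode Krüppel-like factors, -0.99 for the stress gene Gadd45g and -0.84 for the kinase gene Sgk1. Klf4 was at 325 ± 35.2 CPM in RAMs and 144 ± 16.3 in MAMs (SD, n = 5 each).

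The regulators upstream went both ways. Of 14 genes of SRF, its cofactors and the CREB group, 6 rose, 2 fell and 6 did not pass, with a median log2 fold change of 0.16. Crem, a CREB relative that also makes a repressor form, rose by 2.21, from 15.1 ± 3.41 CPM in RAMs to 70 ± 6.63 in MAMs (SD, n = 5 each). Elk3, a ternary complex factor gene, rose by 1.25, and the SRF cofactor genes Mkl2 and Mkl1 fell, at -0.72 and -0.70 on the log2 scale. Of 26 tested genes of the MAP kinase cascade, 11 rose, 11 fell and 4 did not pass, with a median of 0.06. Rps6ka5, the gene of MSK1, which phosphorylates CREB and histone H3 at these genes, fell most, from 67.7 ± 6.66 CPM in RAMs to 11.4 ± 3.11 in MAMs (SD, n = 5 each), at -2.57. Rps6ka2, an RSK kinase gene, fell from 43.8 ± 9.06 to 15.4 ± 4.93 CPM (SD, n = 5 each), and Mapk7, the gene of ERK5, rose by 1.22 on the log2 scale. Mapk11 rose from a mean of 0.143 CPM in RAMs, where the lowest library was at 0, to 2.28 in MAMs, and its fitted change of 4.00 rests on a very low RAM level.

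Heat shock genes, which like immediate early genes respond during tissue digestion, were higher in MAMs for 9 of 12 genes, lower for 0, and not past the threshold for 3, with a median log2 fold change of 0.61. Hspa1a, an inducible HSP70 gene, was at 34.5 ± 7.37 CPM in MAMs and 3.19 ± 1.21 in RAMs (SD, n = 5 each), at 3.43. Only uniquely mapped reads were counted, so reads shared with its near-identical copy Hspa1b would be left out. Hspb1 was at 2.66 CPM in MAMs and 0.148 in RAMs, where the lowest library was at 0, so its fitted change of 4.15 rests on a very low RAM level. Heat shock genes thus moved with Atf3, Junb and Jun and against Fosb, Egr2, Egr1, Ier2 and Fos, and the part of the digestion was not tested.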

How the data were processed

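RNA-seq of macrophages sorted from lung metastases (5 MAM libraries) and normal lungs (5 RAM libraries) was used. The authors aligned reads to GRCm38 with TopHat2 (2.0.13) and deposited raw counts per gene from htseq-count (HTSeq 0.6.1, UCSC RefGene models, strand setting not given in the sources used here). The authors also deposited FPKM values from Cufflinks (2.2.1). Versions are those of the submitters' processing notes. Groups came from the sample titles. Lines for unassigned reads, 54.6% to 58.3% of a MAM library and 62.2% to 64.1% of a RAM library, were left out.

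Genes whose FPKM averaged 1 or more in either group were tested with edgeR 4.0.16 (R 4.3.3), by the quasi-likelihood test of MAMs against RAMs with TMM factors (0.897 to 1.10), no covariate and Benjamini-Hochberg adjustment. The study used DESeq2, an alternative here (DESeq2 1.42.0). Other alternatives were RLE and upper-quartile scaling, library totals alone, 2 filters on low expression, a replicate block, limma 3.58.1 on log2(FPKM + 1) and log2(FPKM + 0.1), and each library left out. Log2 CPM used a prior count of 2. The fits were tested on simulated data. P-values measure the spread between these samples only. Whether same-numbered libraries are paired was checked by their deviations from the group means.

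The members and gene lists were chosen with earlier results of these data known. Named were the 10 members, the 2 highest and 2 lowest called changes of each list (4 and 4 for the primary response genes) with a mean count of at least 10, the nearest genes in pattern and the most abundant gene of each cell type list. A gene that this rule would name is not reported here. Positions are from GENCODE M21 (GRCm38). Figures were drawn with matplotlib 3.10.9.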

Additional observations from a re-analysis of the deposited data

How the results depend on the processing

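Of the 10 immediate early genes, 7 were called in the same direction in all 19 alternatives (Fos, Fosb, Junb, Atf3, Egr1, Egr2 and Ier2). The count called lower was 5 throughout, and the count called higher ran from 2 to 4, with Jun losing its call in 7 alternatives and Nr4a1 gaining one in 3. The log2 fold change of Jund turned to -0.13 with upper-quartile scaling, to -0.19 with library totals alone, to -0.04 without MAM replicate 5 and to 0.00 without RAM replicate 5 (-0.04 to 0.09 over the libraries left out). With a library left out, the count of members lower by over 2-fold ran from 1 to 3 (1 without MAM replicate 3 or 4). With Fosl1 and Fosl2 added to the FOS sum after seeing the data, the mean FOS over JUN ratio moved from 0.553 to 0.927 in MAMs and from 1.91 to 2.6 in RAMs. Library totals alone moved the median log2 fold change of all genes from -0.02 to -0.24, and upper-quartile scaling to -0.18. The count of all genes past 2-fold was 3511 and ran from 2909 with limma on log2(FPKM + 1) to 4672 without a filter. Same-numbered libraries did not deviate together (correlations from -0.0366 to 0.0294, and 2 of 5 best with their own number). With the replicate number as a block, 3 members were called higher and 5 lower, as without it, and 3526 genes passed. None of the 20 groups of 5 values had a library that stood apart by Dixon's limit. Depth set no limit on the members, whose lowest count in any library was 713.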
